A study of Mus musculus with 24 samples.

Results

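The cyclin-dependent kinase (CDK) inhibitors and the retinoblastoma (Rb) family are the genes that hold a cell back from entering the division cycle. The 10 genes described here were taken by name out of 55487 gene identifiers in the deposited tables, and all are reported whatever their values. They were chosen with earlier results of these data known. They are the CIP/KIP inhibitors Cdkn1a (p21), Cdkn1b (p27) and Cdkn1c (p57), the INK4 inhibitors Cdkn2a, Cdkn2b, Cdkn2c and Cdkn2d, and the pocket proteins Rb1, Rbl1 (p107) and Rbl2 (p130).

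They were measured in 24 RNA sequencing libraries of sorted HSCs of the mouse, the hematopoietic stem cells of the marrow, which renew themselves and feed every blood lineage. The series concerns PUS10, a pseudouridine synthase, in the aging of these cells, and it holds 3 experiments. PUS10-OE libraries (n = 3, overexpression of PUS10) were compared with Vector libraries (n = 3). The miR139-KD libraries (n = 6, knockdown of miR-139, a microRNA) had NTC, the non-target control (n = 6), as their counterpart. Libraries labelled Pus10-KO (n = 3) were set against Pus10-WT (n = 3). The labels name only these genotypes: they give no age, strain, promoter, means of delivery or way of knockout, and do not say which libraries stem from different animals. The p-values therefore measure only how far these libraries spread, and that spread may be technical.

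CDK4 and CDK6, joined to D cyclins, and CDK2, joined to cyclin E, phosphorylate the pocket proteins and so release E2F transcription factors, which switch on genes of DNA replication. INK4 proteins bind CDK4 and CDK6, whereas CIP/KIP proteins act mainly on CDK2 complexes. Most HSCs in adult marrow rest outside the cycle, and Cdkn1c is among the inhibitors known for keeping them there.

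Counts assigned to genes ranged from 9.87 M (mega) in a miR139-KD library to 47.3 M in a Vector library. Pus10, the targeted gene, lay at 242 to 285 CPM in PUS10-OE (CPM, counts scaled to the library size by the TMM method) and 53.6 to 92.8 CPM in Vector. It lay at 33.7 to 36.3 CPM in the libraries labelled Pus10-KO and 19.6 to 33.8 CPM in Pus10-WT, so the count over the whole gene was not lower under the knockout label. Every direction given for that comparison is a direction between labels. All 12 HSC markers examined were detected in every library of 5 groups, and 10 of the 12 in every NTC library. Knockdown of miR-139 itself was not checked here.

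Since miR-139 was the target of 1 experiment, its mature sequences were set against the 3' untranslated regions of the 10 genes. The RefSeq sequences (GRCm38.p6, plus strand) are printed with the seed, bases 2 to 8, in capitals. The 5p strand lies at chr7:101475382-101475403 and the 3p strand at chr7:101475418-101475439.
mmu-miR-139-5p: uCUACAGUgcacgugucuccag
mmu-miR-139-3p: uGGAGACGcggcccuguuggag
Matches to the 7 seed letters were searched on the transcript strand only, as ACTGTAG for the 5p strand and CGTCTCC for the 3p strand. Of the 10 genes, 1 held a match for each strand. Among all 21020 genes with an annotated 3' untranslated region, 11.6% held the 5p letters and 3.33% the 3p letters. The match of Cdkn1b lies at chr6:134922478-134922484 (GRCm38, plus strand), 404 bases after the stop codon. That of Cdkn1a lies at chr17:29099507-29099513 (plus strand), 114 bases after the stop codon. The transcript it was read from has a 3' untranslated region of 308 bases, and the longest annotated for this gene has 1334 bases. Each match is shown in capitals with 11 flanking bases on either side.
Cdkn1b: gaaccatttgaACTGTAGaaaaatggcaa
Cdkn1a: tttaatttaaaCGTCTCCtgtatatacgc
A match is a string of letters and not a shown site of action.

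The pocket proteins act through E2F, so promoters were searched for 4 spellings of an E2F motif, TTTCCCGC, TTTGGCGC, TTTCGCGC and TTTGCCGC, on both strands. The windows run from 250 bases before to 50 bases after each start in RefSeq, and windows were at hand for 8 of the 10 genes. A match was found in 2 of these 8 genes, Rbl1 and Cdkn2a, and in 2.60% of all 27025 genes with a window. Counted from the start, the Rbl1 match begins at base -18, in the window chr2:157204485-157204784 (minus strand). The Cdkn2a match begins at base -99 from 1 of its starts, in chr4:89294570-89294869 (minus strand). The motif is in capitals, and the sequence is read in the direction of transcription.
Rbl1: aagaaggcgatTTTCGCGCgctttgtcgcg
Cdkn2a: ctctgggaagcTTTCCCGCgcgactgggga

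Cdkn2d, an INK4 inhibitor, was the most abundant of the 10 transcripts per length in all 6 groups. On the RPKM scale, reads scaled by exon length and library size, its group means ran from 54.8 in miR139-KD to 73.6 in Pus10-KO. In each group its lowest library was above the highest library of the next gene. Which gene came next differed: Rbl1 (25.5 RPKM) in Vector, Cdkn1a in PUS10-OE (32.2) and NTC (15.4), Cdkn2c (19.7) in miR139-KD, and Rbl2 in Pus10-WT (8.53) and Pus10-KO (11.3). Below the top place many neighbours were not separated. In Pus10-WT the means of Rb1, Cdkn1c, Cdkn1a and Cdkn1b lay between 2.47 and 2.67 RPKM with overlapping ranges. In NTC those of Rb1, Rbl2, Cdkn1b and Cdkn1c lay between 2.09 and 2.82 RPKM, also overlapping from each to the next.

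**Figure D1:**
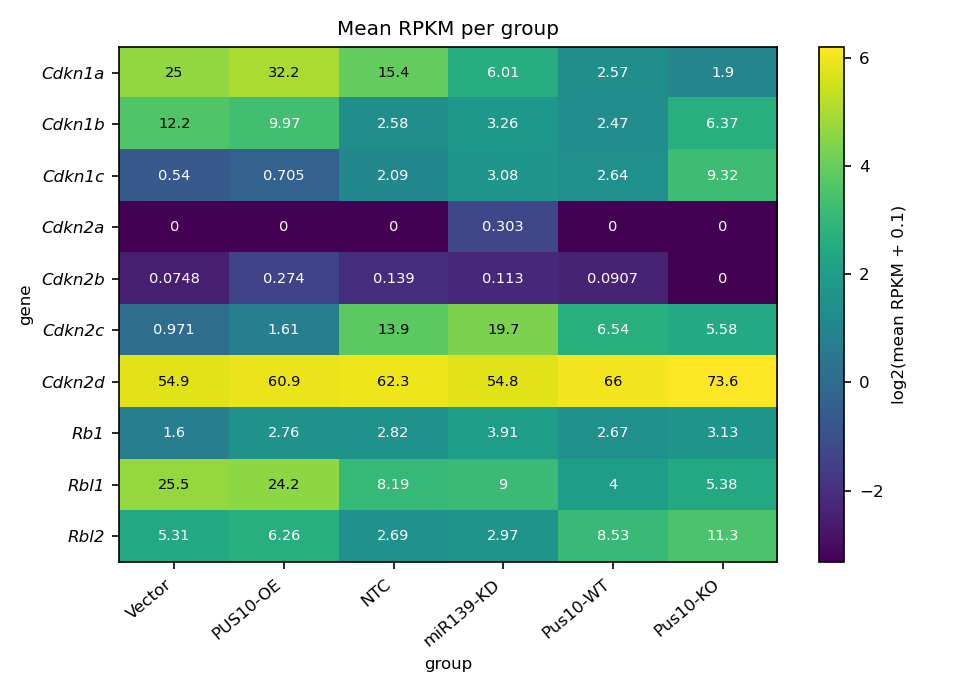
Mean level of each of the 10 genes (vertical axis) in each of the 6 groups (horizontal axis), in RPKM as printed in the cells; the colour is log2 of the mean plus 0.1. The Cdkn2d row is the highest in every group, at 54.8 to 73.6 RPKM, and the Cdkn2a row is at 0 outside miR139-KD.

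Cdkn2a, which encodes p16 and the p53 activator ARF, had 0 counts in 22 of the 24 libraries. The exceptions were miR139-KD replicates 1 and 3, with 14 and 9 counts. Cdkn2b, which encodes p15, had 0 counts in 18 of 24 libraries and reached 1.16 CPM at most. A count of 0 allows up to 3 counts, which corresponds to 0.0624 to 0.300 CPM depending on the library and covers counting error only. Both genes failed the filter on low counts in each of the 3 comparisons and were not tested there. The other 8 genes were tested in all 3 comparisons.

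The control groups of the 3 experiments stood far apart for several of these genes. CPM were scaled within each experiment's own pair of groups, so levels of different experiments are not on a common scale. Cdkn2c, the INK4 inhibitor p18, averaged 37.3 CPM in NTC, 17.6 CPM in Pus10-WT and 2.61 CPM in Vector, and the ranges of the 3 groups did not overlap. The NTC mean was 14.3 times the Vector mean. Cdkn1a averaged 88.7 CPM in Vector and 9.14 CPM in Pus10-WT, a ratio of 9.70. Rbl1, an E2F target gene, averaged 153 CPM in Vector and 23.9 CPM in Pus10-WT, a ratio of 6.38, while Cdkn1c stood the other way, at 1.102 CPM in Vector and 5.39 CPM in Pus10-WT. Rb1 and Cdkn2d differed least, with ratios of 1.77 and 1.20 between the highest and lowest control. The summed level of 24 S-phase genes had medians of 6846 CPM in Vector, 5134 CPM in NTC and 2549 CPM in Pus10-WT. Over 19 mitotic genes the medians were 4509, 2909 and 498 CPM. Marker sums differed too: in the same order, 12 HSC markers had medians of 967, 663 and 2953 CPM. For 3 multipotent progenitor markers they were 931, 633 and 60.5 CPM. Experiment and control group cannot be told apart, so no test was made between them. In bulk libraries, fewer cells of a type and less RNA per cell cannot be told apart either.

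**Figure D2:**
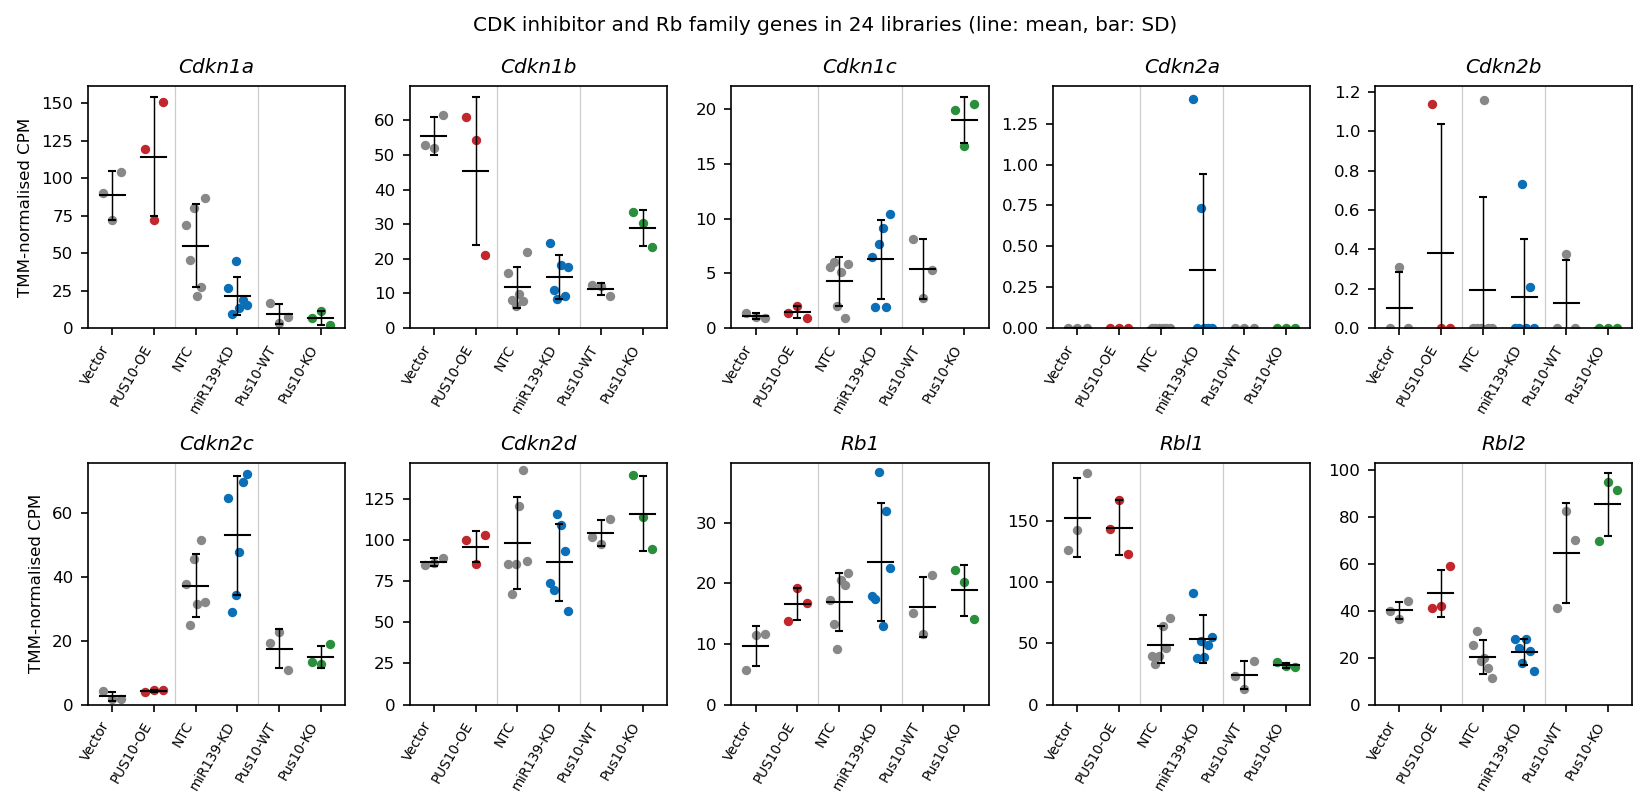
TMM-normalised CPM of each gene in all 24 libraries, 1 panel per gene, with the groups along the horizontal axis; each point is a library, lines are group means and bars are SD. Cdkn1b and Cdkn1c in Pus10-KO lie above all Pus10-WT libraries, whereas in the other 2 experiments most treated and control points overlap.

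The comparison of PUS10-OE with Vector asks how overexpression of PUS10 changes HSC transcripts. None of the 8 tested genes passed an edgeR adjusted p of 0.05, in a comparison where 0% of all 14834 genes tested did. DESeq2 called 0 of the 8 and 1.2% of all genes. At an unadjusted edgeR p under 0.05 there was 1 gene, Rb1, against 8.19% of all genes. The groups did not overlap for 1 of the 8, again Rb1, against 15.1% of all genes. Of the 8 log2 fold changes 6 were positive, with a median of 0.30, against 50.7% positive and a median of 0.0059 over all genes tested.

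Rb1, the founding pocket protein and tumour suppressor, stood at 5.78, 11.4 and 11.6 CPM in Vector and at 13.9, 19.2 and 16.8 CPM in PUS10-OE. All PUS10-OE libraries were above all Vector libraries, and Vector replicate 1 was the lowest of the 6. The log2 fold change was 0.79 (SE 0.309, 95% interval 0.08 to 1.51, edgeR adjusted p = 0.566), so the difference did not pass the test. Rb1 (chr14:73183673-73325822, GRCm38, minus strand) shares 8.11% of its exon bases with Rcbtb2 and 6.78% with Lpar6, both on the opposite strand. Smart-seq2 reads carry no strand, and reads of the shared bases cannot be assigned to either gene.

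Among the CIP/KIP genes, Cdkn1a, a p53 target, stood at 89.8, 71.8 and 104 CPM in Vector and at 120, 72.3 and 151 CPM in PUS10-OE. The ranges overlapped, and the log2 fold change was 0.37 (SE 0.261, edgeR adjusted p = 0.824). Cdkn1b, which restrains CDK2 in resting cells, stood at 52.7, 52.0 and 61.6 CPM in Vector and at 61.0, 54.3 and 20.96 CPM in PUS10-OE. PUS10-OE replicate 3 was far below the other 5 libraries and alone made the log2 fold change negative: it was -0.29 with that library and 0.040 without it. Cdkn1c was near 1 CPM in both groups (1.102 ± 0.258 and 1.44 ± 0.551, SD, n = 3 each).

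Cdkn2c stood at 4.23, 1.81 and 1.79 CPM in Vector and at 4.01, 4.43 and 4.51 CPM in PUS10-OE. The log2 fold change, 0.73 (SE 0.451, edgeR adjusted p = 0.776), was larger without Vector replicate 1, at 1.26, and did not pass the test there either. Cdkn2d had the narrowest interval of the 8 genes, from -0.11 to 0.41 around a log2 fold change of 0.15. The other pocket genes Rbl1 and Rbl2 had log2 fold changes of -0.08 and 0.24, with edgeR adjusted p of 0.977 and 0.833.

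In the genes around them, 0 members of the 9 lists of cell cycle and upstream genes passed the edgeR test. Of 19 mitotic genes bound by the DREAM complex, the assembly of Rbl2 or Rbl1 with E2F and MuvB proteins, 17 had positive fold changes with a median of 0.13. In that list Cenpf, a kinetochore protein, averaged 55.5 ± 1.92 CPM in Vector and 91.5 ± 9.40 CPM in PUS10-OE (log2 fold change 0.72, edgeR adjusted p = 0.298). Of 24 S-phase genes bound by E2F, 11 had positive fold changes, with a median of -0.02. Cdk6, a partner of the D cyclins, averaged 842 ± 15.4 CPM in Vector and 1040 ± 65.5 CPM in PUS10-OE (log2 fold change 0.31, edgeR adjusted p = 0.364). Of 20 genes of the p53 list 14 had positive and 6 negative fold changes, with a median of 0.06. Sesn1, a p53 target, was lower, at 187 ± 7.48 and 147 ± 8.94 CPM (log2 fold change -0.35, edgeR adjusted p = 0.389). Bax, Perp and Ei24 were higher (log2 fold changes 0.33, 0.51 and 0.59, edgeR adjusted p = 0.559, 0.610 and 0.705). Beside these values, 3 multipotent progenitor markers summed to 930 to 947 CPM in Vector and 652 to 679 CPM in PUS10-OE. The 6 megakaryocyte and platelet markers summed to 153 to 180 CPM in Vector and 249 to 449 CPM in PUS10-OE, also without overlap. The part of these shifts in the results was not tested.

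The comparison of miR139-KD with NTC asks what changes in HSCs when miR-139 is knocked down. None of the 8 tested genes passed an edgeR adjusted p of 0.05, against 2.72% of all 13295 genes tested. DESeq2 called 1 of the 8, Cdkn1a, and 6.11% of all genes. Cdkn1a was also the only one of the 8 with an unadjusted edgeR p under 0.05, against 16% of all genes. The groups overlapped for all 8 genes, and 3.42% of all genes did not overlap. The 8 log2 fold changes had a median of 0.24, with 6 positive, against a median of 0.017 and 51.4% positive over all genes.

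Cdkn1a had a lowest, median and highest level of 21.3, 57.1 and 86.6 CPM in NTC and of 9.68, 16.9 and 44.6 CPM in miR139-KD. NTC was spread over a 4.06-fold range and miR139-KD over a 4.61-fold range, and the 2 lowest NTC libraries lay within the range of miR139-KD. The means were 54.9 ± 27.6 and 21.4 ± 12.8 CPM (SD, n = 6 each). The log2 fold change was -1.36 (SE 0.414, 95% interval -2.25 to -0.48, edgeR adjusted p = 0.103), and DESeq2 gave an adjusted p of 0.0130. Without miR139-KD replicate 3, the highest of its group, the log2 fold change was -1.71 and edgeR gave an adjusted p of 0.0395. A filter of 10 CPM on all genes also led to a call (edgeR adjusted p = 0.0423). Over the 22 settings run, the main one included, the adjusted p for Cdkn1a ran from 0.0130 to 0.216 and was under 0.05 in 3. Cdkn1a is the gene whose 3' untranslated region holds the CGTCTCC letters printed earlier. Whether these letters bear on its lower level in miR139-KD was not tested.

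Cdkn1b, which holds the ACTGTAG letters, had a lowest, median and highest level of 6.51, 9.10 and 21.9 CPM in NTC and of 8.46, 14.2 and 24.6 CPM in miR139-KD. The groups overlapped almost fully, and the log2 fold change was 0.34 (SE 0.390, edgeR adjusted p = 0.765). Cdkn1c had a log2 fold change of 0.56 with a wide interval, -0.79 to 1.90, at mean levels of 4.26 and 6.27 CPM. For both genes the upper bound of the interval, 1.17 and 1.90, is above a log2 fold change of 1.

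Cdkn2c had a lowest, median and highest level of 24.9, 34.9 and 51.8 CPM in NTC and of 29.0, 56.3 and 72.4 CPM in miR139-KD. In miR139-KD 3 libraries lay above every NTC library, but the log2 fold change, 0.51 (SE 0.257, edgeR adjusted p = 0.358), did not pass the test. Cdkn2d lay at 98.1 ± 27.9 and 86.3 ± 23.3 CPM (SD, n = 6 each), with a log2 fold change of -0.18 and an interval from -0.63 to 0.27. Among the pocket genes, Rb1 had a log2 fold change of 0.47 (edgeR adjusted p = 0.512), and Rbl1 and Rbl2 each had 0.14 (edgeR adjusted p = 0.865 and 0.875). Rbl1 had 1 high library, miR139-KD replicate 1 at 91.5 CPM, and without it the log2 fold change was -0.077.

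Of the surrounding lists, 3 held a gene that passed the edgeR test, 1 gene each, beside 2.72% of all 13295 genes tested. Ccnd3, a D cyclin that activates CDK4 and CDK6, fell from 405 ± 104 CPM in NTC to 149 ± 39.5 CPM in miR139-KD (log2 fold change -1.44, SE 0.197, edgeR adjusted p = 0.00148), and the groups did not overlap. It was the 1 called gene among 13 cyclins and kinases of the G1 phase, whose median was -0.21. Rbbp4, a histone-binding protein of the MuvB core, fell from 108 ± 12.1 to 69.9 ± 13.4 CPM (log2 fold change -0.62, edgeR adjusted p = 0.0346), 1 of 7 genes in its list. Suz12, a Polycomb protein, rose from 62.4 ± 4.16 to 93.2 ± 17.2 CPM (log2 fold change 0.58, edgeR adjusted p = 0.0320), 1 of 13 Polycomb genes known for silencing the Cdkn2a locus. In the other 6 lists 0 genes were called. Of the 24 S-phase genes 20 had negative fold changes (median -0.13), while 12 of the 19 mitotic genes had positive ones (median 0.12). Of 18 tested genes of the p53 list 9 were negative, among them Trp53 itself at -0.32 (edgeR adjusted p = 0.0903).

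Marker sums moved with this comparison. The 3 multipotent progenitor markers summed to 494 to 933 CPM in NTC and 184 to 267 CPM in miR139-KD. The 6 megakaryocyte and platelet markers summed to 65.6 to 314 CPM in NTC and 1112 to 2810 CPM in miR139-KD. The 5 T cell markers summed to 41.4 to 62.1 CPM in NTC and 0.799 to 13.6 CPM in miR139-KD. Cd3e, Cd3g and Cd8a were at 0 in both groups and Cd3d in all miR139-KD libraries, so the miR139-KD sum is that of Lck alone. The 12 HSC markers summed to 565 to 918 CPM in NTC and 880 to 1079 CPM in miR139-KD. B and plasma cell markers summed to 447 to 10804 and 110 to 9665 CPM, and erythroid markers to 157 to 8691 and 344 to 8664 CPM. Granulocyte and monocyte markers summed to 1484 to 10486 CPM in NTC and 930 to 11947 CPM in miR139-KD. These lists thus varied within both groups. Mast cell and basophil markers summed to 13.8 to 52.6 CPM in NTC and 8.47 to 1952 CPM in miR139-KD, with a median of 18.9 CPM in the latter. The part of other cell types in the values of Cdkn1a and Ccnd3 was not tested.

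The comparison of the libraries labelled Pus10-KO with Pus10-WT asks how HSCs carrying the 2 genotype labels differ. None of the 8 tested genes passed an edgeR adjusted p of 0.05, against 0.0614% of all 14657 genes tested. DESeq2 called 1 of the 8, Cdkn1b, and 1.08% of all genes. Cdkn1b and Cdkn1c had an unadjusted edgeR p under 0.05, against 6.86% of all genes. They were also the 2 of the 8 whose groups did not overlap, against 13.7% of all genes. The 8 log2 fold changes had a median of 0.32, with 6 positive, against a median of -0.00342 and 49.7% positive over all genes.

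Cdkn1b stood at 12.4, 12.2 and 9.12 CPM in Pus10-WT and at 33.4, 30.2 and 23.3 CPM in the libraries labelled Pus10-KO. All of the latter lay above every Pus10-WT library. The log2 fold change was 1.36 (SE 0.312, 95% interval 0.64 to 2.09, edgeR adjusted p = 0.455), which ranked 85 among all genes by p. DESeq2 gave an adjusted p of 0.0491, the lowest over the 16 settings run, of which the highest was 0.887. Cdkn1b lies at chr6:134920401-134925513 (GRCm38, plus strand).

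Cdkn1c stood at 8.15, 2.71 and 5.30 CPM in Pus10-WT and at 19.9, 16.6 and 20.5 CPM in the libraries labelled Pus10-KO. The groups were again apart, and the libraries labelled Pus10-KO lay within a 1.23-fold range. The log2 fold change was 1.82 (SE 0.497, 95% interval 0.66 to 2.97, edgeR adjusted p = 0.507), and DESeq2 gave an adjusted p of 0.0981. Leaving out each library in turn gave 1.49 to 2.24 for Cdkn1c and 1.23 to 1.501 for Cdkn1b, and neither passed the edgeR test in any of these fits. Cdkn1c (chr7:143458339-143461050, minus strand) shares 30.7% of its exon bases with the antisense gene Gm44732. Reads of the shared bases cannot be assigned to either gene. The 0 counts of Gm44732 in all libraries therefore do not show that the overlap is without effect. The RPKM of Cdkn1c divides by all its exon bases, the shared ones included, and may be too low.

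**Figure D3:**
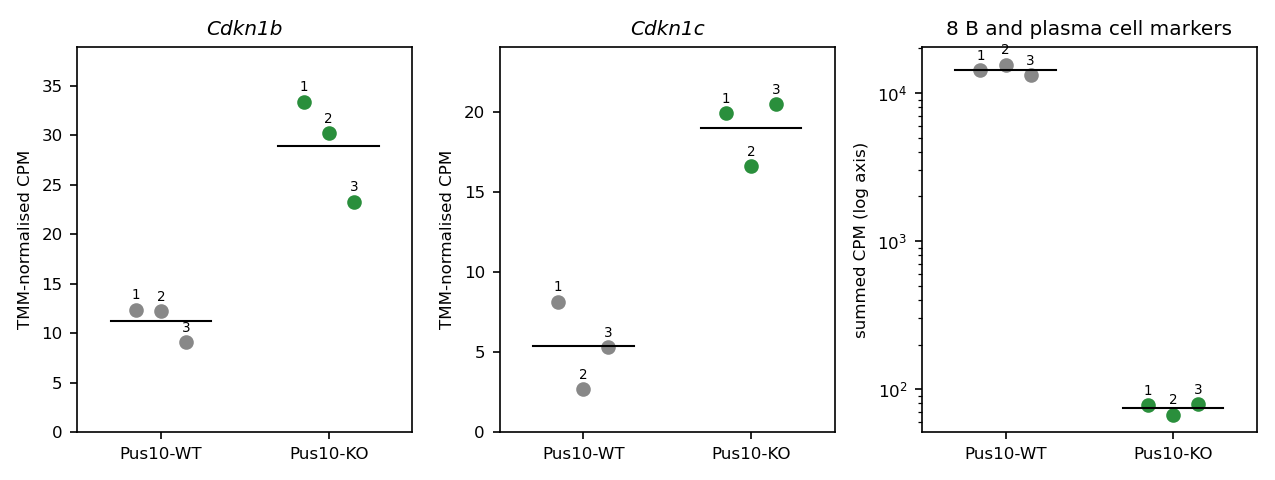
Levels of Cdkn1b and Cdkn1c (TMM-normalised CPM, from 0) and the summed CPM of 8 B and plasma cell markers (log axis) in Pus10-WT and Pus10-KO; points are libraries with their replicate numbers and lines are means. Both genes are higher in all 3 Pus10-KO libraries, and the marker sum is lower in all 3.

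Markers of other cells differed between the same libraries. The 8 B and plasma cell markers summed to 13195 to 15581 CPM in Pus10-WT and 66.9 to 79.0 CPM in the libraries labelled Pus10-KO, where Cd79a, Ms4a1 and Mzb1 were at 0 in all 3. Pax5 was at 0 in both groups. Erythroid markers summed to 276 to 299 CPM in Pus10-WT and 275 to 5525 CPM in Pus10-KO, and granulocyte and monocyte markers to 538 to 822 and 606 to 3900 CPM. The 12 HSC markers summed to 2928 to 3449 and 2966 to 3246 CPM. The part of other cell types in the levels of Cdkn1b and Cdkn1c was not tested.

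Cdkn1a, the other CIP/KIP gene, stood at 16.6, 3.66 and 7.21 CPM in Pus10-WT and at 6.58, 11.3 and 2.38 CPM in Pus10-KO. Its libraries spread over more than a 4.5-fold range in each group, and the log2 fold change of -0.44 (SE 0.790) was 0.31 without Pus10-WT replicate 1. Cdkn2c and Cdkn2d had log2 fold changes of -0.23 and 0.16, with edgeR adjusted p of 0.999 and 0.975. The 3 pocket genes were all positive, at 0.23 for Rb1, 0.43 for Rbl1 and 0.40 for Rbl2, and each interval included 0. Rbl2, a pocket protein known for its abundance in resting cells, stood at 40.9, 82.5 and 70.0 CPM in Pus10-WT and at 69.8, 94.6 and 91.3 CPM in Pus10-KO, with overlapping groups. It shares 9.17% of its exon bases with Aktip and 11.8% with Gm45464, both on the opposite strand.

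None of the 9 surrounding lists held a gene that passed the edgeR test. Among those with the lowest p, Cdk4 averaged 598 ± 25.2 CPM in Pus10-WT and 467 ± 42.5 CPM in Pus10-KO (log2 fold change -0.36, edgeR adjusted p = 0.508). Ccnd1, a D cyclin, averaged 43.2 ± 9.88 and 22.3 ± 7.32 CPM (log2 fold change -0.95, edgeR adjusted p = 0.603). Mnat1, also of the 13 G1 genes, was higher (log2 fold change 0.39, edgeR adjusted p = 0.771). Of these 13 genes 10 were negative. Phc2, a Polycomb gene, averaged 30.0 ± 4.40 and 55.8 ± 14.4 CPM (log2 fold change 0.89, edgeR adjusted p = 0.537). Trp53 averaged 540 ± 37.7 and 443 ± 15.6 CPM (log2 fold change -0.28, edgeR adjusted p = 0.567). Of 13 Polycomb genes 9 were positive, and of 18 tested p53 genes 11 were negative. Among 9 tested genes of the E2F list 7 were positive and 2 negative (median 0.27). Among 7 genes of the MuvB list 5 were positive and 2 negative (median 0.31). E2f2 averaged 0.707 ± 1.23 CPM in Pus10-WT and 10.8 ± 5.65 CPM in Pus10-KO (log2 fold change 3.93, edgeR adjusted p = 0.746). Among 10 genes of the ubiquitin ligases of p21, p27 and p57, 2 were positive and 8 negative. Of 10 TGF-beta and FoxO genes 7 had positive and 3 negative fold changes, with a median of 0.15. Smad7 averaged 20.4 ± 6.10 CPM in Pus10-WT and 44.8 ± 9.09 CPM in Pus10-KO (log2 fold change 1.14, edgeR adjusted p = 0.508). Foxo3 averaged 170 ± 12.4 and 219 ± 18.1 CPM (log2 fold change 0.36, edgeR adjusted p = 0.576). Tgfbr2 was lower, at 33.1 ± 5.53 and 22.1 ± 6.51 CPM (log2 fold change -0.58, edgeR adjusted p = 0.837). Smad3 was lower as well (log2 fold change -0.31, edgeR adjusted p = 0.970). The 19 mitotic genes had a median of -0.42 with 13 negative, and the 24 S-phase genes a median of -0.07 with 16 negative. In both lists 0 genes had an unadjusted edgeR p under 0.05. The mitotic genes summed to 111 to 1253 CPM in Pus10-WT and 326 to 803 CPM in Pus10-KO, so the latter lay within the range of the former.

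**Figure D4:**
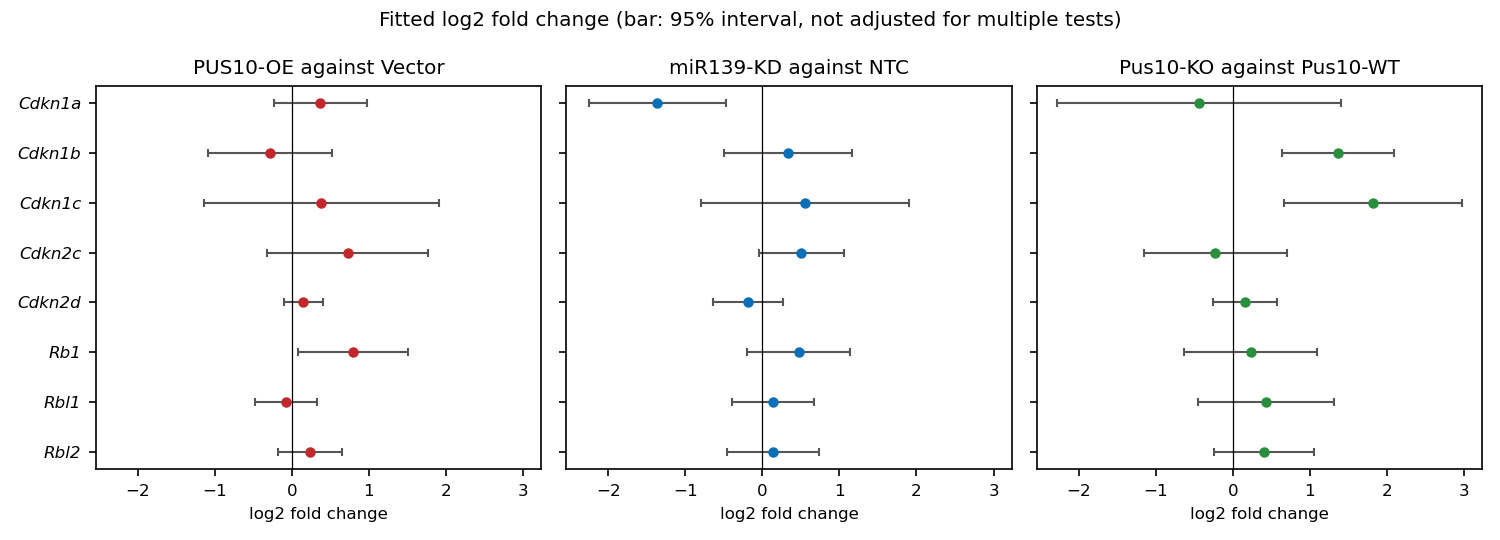
Fitted log2 fold change (horizontal axis) of the 8 tested genes (vertical axis) in the 3 comparisons; points are estimates and bars are 95% intervals, not adjusted for multiple tests. The intervals that leave out 0 are those of Rb1 in PUS10-OE, Cdkn1a in miR139-KD, and Cdkn1b and Cdkn1c in Pus10-KO.

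Whether the effects differed between comparisons was tested in 1 fit over all libraries, for 9 of the 10 genes and the 3 pairs of comparisons. None of the 27 differences passed an edgeR adjusted p of 0.05, the lowest being 0.483. Over all 17664 genes in that fit, 0.051%, 0.0226% and 0.294% were called. An unadjusted p under 0.05 was found for 2 of the 27. The Cdkn1a effect in PUS10-OE exceeded that in miR139-KD by 1.75 on the log2 scale (SE 0.724, edgeR adjusted p = 0.483). The Cdkn1b effect in PUS10-OE was below that in Pus10-KO, by a log2 difference of -1.64 (SE 0.637, edgeR adjusted p = 0.741). The opposite signs of Cdkn1b under overexpression and under the knockout label were thus not shown to differ, and the former rested on 1 library.

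Within groups the members had little in common. After the group means were subtracted, the 28 pairs of the 8 tested genes had Pearson correlations of log2 CPM over 24 libraries from -0.38 to 0.51, and 2 were above 0.5: Cdkn1b with Cdkn1c (0.51) and Rb1 with Rbl1 (0.50). Of the 12307 genes compared, that most like Rbl1 was Tacc3 (r = 0.79), which encodes a protein of the mitotic spindle. Those most like the others were Zfp599 for Cdkn1a (0.81), Ubn2 for Cdkn1b (0.87), Zxdc for Cdkn1c (0.82), Snx25 for Cdkn2c (0.78), Abhd5 for Cdkn2d (0.83), Sytl4 for Rb1 (0.75) and Gm5555 for Rbl2 (0.78). These are the highest of many correlations over libraries that share depth and cell makeup, and are given as a description.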

How the data were processed

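Smart-seq2 libraries of sorted HSCs were sequenced, per the labels' protocols. The deposited values are raw read counts for each gene. Per the submitters' processing notes, HISAT2 2.1.0, HTSeq 0.11.2, DESeq2 and the mm10 build were used. The annotation release was not given in the sources used here. Smart-seq2 libraries do not mark the strand. Reads assigned to no gene (3.70% to 12.0%) and ambiguous reads (6.53% to 20.1%) stayed out of library sizes. Symbols came from GENCODE for 55394 identifiers.

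Groups came from the genotype labels. The 2 groups of a comparison were fitted alone in edgeR 4.0.16 under R 4.3.3 (filterByExpr, TMM, robust quasi-likelihood F test, two-sided), with Benjamini-Hochberg adjustment over all genes tested and a threshold of 0.05. Standard errors and intervals derive from the F statistic. RPKM used the union of annotated exons. Libraries of 1 group were checked for duplicates, and each of the 42 pairs differed beyond sampling noise (chi-square over its degrees of freedom at least 30.1). The script was tested on simulated counts. Alternatives were DESeq2 1.42.0, limma-voom (limma 3.58.1) with quality weights, other scalings and filters, the replicate number as a block, 1 fit of all groups and each library left out. Reads carry no molecular identifiers, so floors cover counting error only. Python 3.11.15 with matplotlib 3.10.9 drew the figures.

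The 10 genes, the surrounding lists and the markers were chosen with earlier results of these data known. All 10 genes are named whatever their values. Of each surrounding list, the rule names the called genes or the 4 with the lowest p, of which the text gives some. It also takes Pus10 and the 3 genes most like each member, of which the text gives the first.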

Additional observations from a re-analysis of the deposited data

Results flagged for a closer look

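In groups of 6, 3 values stood apart from their group by a gap that, as a share of the range, was above Dixon's 95% critical value. Chance flags about 1 in 20 groups of values that vary freely, and 19 were examined. That rate does not apply to Cdkn2b, which was at 0 in most libraries. Cdkn2b was at 1.16 CPM in NTC replicate 4 and at 0 in the other 5 NTC libraries. Cdkn2b was at 0.732 CPM in miR139-KD replicate 3, with the next library at 0.210 CPM. Rbl1 was at 91.5 CPM in miR139-KD replicate 1, with the next library at 55.4 CPM.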

How the results depend on the processing

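With PUS10-OE, 0 of the listed genes tested were called under each alternative run, and the same held for the differences between comparisons under RLE scaling and DESeq2, where Cdkn2b had no adjusted p. The filter of 10 CPM left out Cdkn1c and Cdkn2c in PUS10-OE, Cdkn1c in miR139-KD and Cdkn1a in Pus10-KO. For miR139-KD the count was 1 with DESeq2 and 1 with a filter of 10 CPM (Cdkn1a, edgeR adjusted p = 0.0423), and 0 to 1 with each library left out. For Pus10-KO the count was 1 with DESeq2 (Cdkn1b) and 0 to 0 with each library left out. Of the alternatives for single genes, 390 kept direction and side of the threshold, 10 reversed and 4 passed the threshold. With each library left out, log2 fold changes that turned ran from -0.20 to 0.10 for Rbl1 and from -0.56 to 0.040 for Cdkn1b in PUS10-OE, from -0.077 to 0.27 for Rbl1 in miR139-KD, and from -1.03 to 0.31 for Cdkn1a in Pus10-KO. Leaving out the library of each group least correlated with the rest, an alternative chosen after seeing the data, gave 0.0090 for Cdkn1b in PUS10-OE (without Vector replicate 1 and PUS10-OE replicate 3) and -0.050 for Rbl2 in miR139-KD (without NTC replicate 6 and miR139-KD replicate 1). In Pus10-KO (without Pus10-WT replicate 2 and Pus10-KO replicate 1) it gave 0.079 for Cdkn2c, -0.045 for Cdkn2d and -0.090 for Rb1. The cause was not tested. Replicate numbers are shared between groups, but same-numbered libraries did not deviate together (correlations -0.020 to 0.020). With the replicate number as a block, 0 of the 8 were called in each comparison, and 0, 188 and 2 genes over the whole table for PUS10-OE, miR139-KD and Pus10-KO, against 0, 361 and 9 without it. Cdkn2a and Cdkn2b were too low for the filter in the 3 comparisons.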
